A study of Mus musculus with 10 samples.

Results

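The genes described here were the receptor and ligands of the PD-1 pathway and 7 further checkpoint or costimulatory genes of myeloid cells, 10 in all of the 55421 genes counted, chosen by name from a list of immune checkpoint molecules. They were Pdcd1 (PD-1), its ligands Cd274 (PD-L1) and Pdcd1lg2 (PD-L2), the costimulatory ligands Cd80 and Cd86, the TNF receptor family member Cd40, the activation marker Cd83, the receptors Havcr2 (TIM-3) and Vsir (VISTA), and the lectin Lgals9 (galectin-9). When PD-L1 or PD-L2 engages PD-1, phosphorylated tyrosines inside the cell dock SHP-2, a phosphatase encoded by Ptpn11, which dampens signaling. CD80 and CD86 on antigen-presenting cells engage CD28 and CTLA-4 on T cells, and CD80 also binds PD-L1 on the same membrane. CD40 receives the CD40 ligand signal from T cells, while TIM-3, VISTA and galectin-9 restrain T cells or myeloid cells in tumors.

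RNA was sequenced from 2 myeloid populations of mice that carried MC17-51 fibrosarcomas, a mouse tumor line, on day 15 after implantation. Myeloid-derived suppressor cells (MDSC) were taken from spleen with magnetic beads, as the polymorphonuclear kind by a scheme meant to keep cells high in GR1 that carry Ly6G and lack Ly6C, and tumor-associated macrophages (TAM) were sorted from the tumor as CD45+CD11b+F4/80+Ly6G- cells. All mice were adult and carried loxP-flanked Ptpn11 alleles (Shp2f/f), and the Shp2f/fLysMcre mice also carried Cre recombinase at the lysozyme locus Lyz2, which is active in neutrophils, monocytes and macrophages. By the study's methods both populations came from the same mice, but the labels do not tie a spleen sample to a tumor sample, and the comparisons across populations treat the samples as independent. There were 2 MDSC samples and 3 TAM samples of each genotype. No source used here states whether a sample came from 1 mouse or several, so that p-values measure the spread between these samples only. Sex-linked reads, given below, showed RNA of both sexes in both Shp2f/fLysMcre MDSC samples. Libraries held between 28844660 and 38222998 counted reads.

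Several facts of the whole libraries stand beside every result below. Ptpn11 fell in Shp2f/fLysMcre TAM, by 1.24 on the log2 scale (SE 0.0386), from 121 to 125 CPM (counts scaled to the size of the library) down to 50.9 to 54.2 CPM. In MDSC it was not called: it stood at 113 and 99.2 CPM in Shp2f/f against 94.8 and 79.6 CPM in Shp2f/fLysMcre (adjusted p = 0.361). The reads of Lyz2, whose locus carries Cre, fell by 8.33 on the log2 scale in TAM and fell by 7.68 in MDSC. No group carried Cre without the loxP-flanked alleles. The loss of Lyz2 reads, Cre itself and the targeting of Ptpn11 therefore cannot be told apart. Xist was higher and Ddx3y lower in Shp2f/fLysMcre in both populations, so that the sex of the mice and their genotype cannot be told apart. Both Shp2f/fLysMcre MDSC libraries held the female transcript Xist (132 and 119 CPM) beside the Y-linked Ddx3y (27.8 and 22.3 CPM). Each thus held RNA of male and female mice, and so of more than 1 mouse. All 10 genes are autosomal, and the part of sex in their values was not tested. The MDSC libraries held monocyte transcripts as well as neutrophil transcripts: in Shp2f/f, 4 monocyte markers summed to 4402 to 4496 CPM and 6 neutrophil markers to 7613 to 7640 CPM, and Ly6g, which encodes the Ly6G antigen of neutrophils, stood at 11.9 and 8.91 CPM. In Shp2f/fLysMcre MDSC the neutrophil sum was higher, at 17834 to 21181 CPM (3 of the 6 markers called higher), and the monocyte sum was 2804 to 3582 CPM (0 of 4 called by edgeR, 2 of 4 at an unadjusted p under 0.05, and 2, Ccr2 and F13a1, called lower by DESeq2). The library of Shp2f/fLysMcre MDSC replicate 2 also stood apart by markers of fibroblasts and tumor cells, which summed to 457 CPM there against 11.2 CPM in replicate 1. In bulk samples, fewer cells of a type and less RNA per cell cannot be told apart.

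The first comparison set TAM against MDSC with SHP-2 intact, and asked where each gene is used. Of the 10 genes, 9 were higher in TAM and Vsir was lower, each past the adjusted p threshold of 0.05. Of all 15659 genes tested, 78.8% were called in this comparison, 40.0% higher in TAM and 38.8% lower. The median log2 difference of the 10 genes was 1.60, beside 0.012 over all genes tested. Tissue and method of purification changed together with the cell type in this comparison.

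Cd83, an immunoglobulin superfamily protein of activated antigen-presenting cells, had the widest gap of the 10. It stood at 3.69 and 4.15 CPM in the Shp2f/f MDSC and at 276, 289 and 263 CPM in the Shp2f/f TAM, a log2 difference of 6.13 (SE 0.0794). Cd274 stood at 14.2 and 11.7 CPM in MDSC against 177, 174 and 169 CPM in TAM (log2 difference 3.74, SE 0.0788). Every TAM library was above every MDSC library in both genes. Cd80 (log2 difference 2.75, SE 0.0551), Pdcd1lg2 (2.32, SE 0.263), Cd86 (1.70, SE 0.0556) and Havcr2 (1.49, SE 0.0526) followed in that order. Pdcd1 was 1.01 higher (SE 0.278, adjusted p = 0.00797), but from 19 and 23 reads in MDSC and 39 to 49 in TAM. Its adjusted p was 0.0519 without Shp2f/f MDSC replicate 1. Lgals9 (0.46, SE 0.0491) and Cd40 (0.42, SE 0.0569) had the narrowest gaps. Vsir ran the other way: 1207 and 1277 CPM in MDSC against 391, 397 and 379 CPM in TAM, a log2 difference of -1.68 (SE 0.0460).

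Ordered by level per kb of exon, which allows 1 gene to be set against another, the members ranked differently in the 2 populations. In Shp2f/f MDSC, Vsir led with 248 CPM per kb, followed by Lgals9 at 63.7, Havcr2 at 17.4 and Cd86 at 12.6 CPM per kb, while Pdcd1 and Pdcd1lg2 closed the order at 0.315 and 0.221 CPM per kb. In Shp2f/f TAM, Cd83 led with 107 CPM per kb, followed by Lgals9 at 87.8 and Vsir at 77.5, then Havcr2 at 49.2 and Cd274 at 47.8 CPM per kb. The ranges of Havcr2 and Cd274 overlapped in that group, and no other neighbors in the order did. Cd86 (41.1 CPM per kb), Cd80 (29.0) and Cd40 (8.95) came next, and the PD-1 ligand Pdcd1lg2 and Pdcd1 itself were again last, at 1.12 and 0.636 CPM per kb. PD-L1 was therefore the PD-1 ligand whose messenger was abundant: within the single libraries of Shp2f/f TAM, Cd274 gave 40.4 to 44.5 times the reads per kb of Pdcd1lg2.

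**Figure D1:**
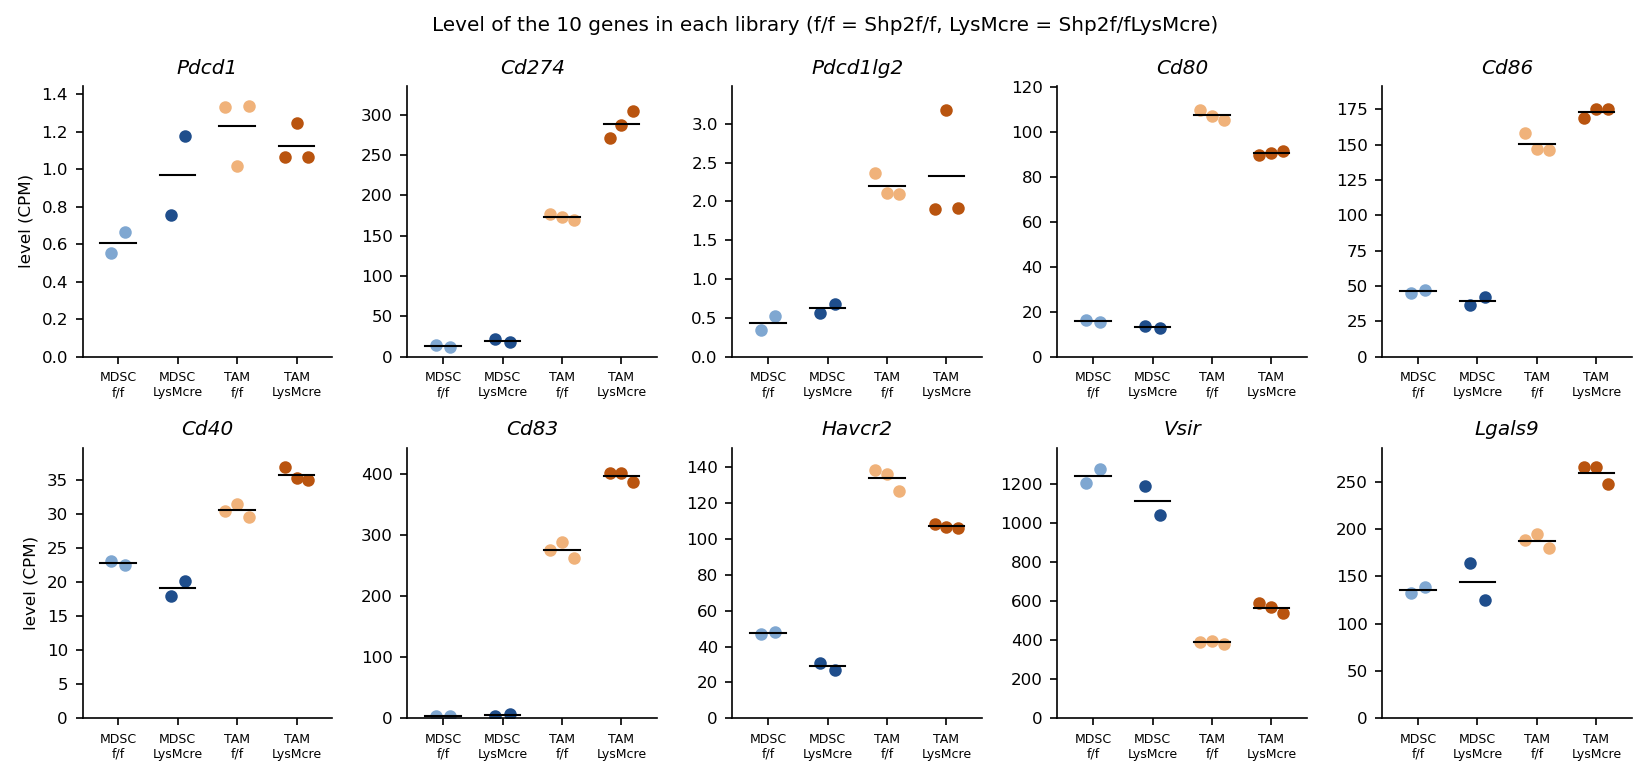
Level of each of the 10 genes (y axis, CPM on a linear scale from 0, a scale of its own for each gene) in every library of the 4 groups (x axis). Points are libraries and black lines are group means; Cd83 ran from 3.69 CPM in MDSC to 402 CPM in TAM, while Vsir was highest in MDSC.

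The main comparison of the design set Shp2f/fLysMcre against Shp2f/f within each population. In TAM, 8 of the 10 genes were called, 6 higher and 2 lower in Shp2f/fLysMcre: Cd274, Cd83, Vsir, Lgals9, Cd40 and Cd86 rose, and Havcr2 and Cd80 fell. Of the 14446 genes tested in TAM, 50.2% were called, 23.9% higher and 26.3% lower. The median log2 fold change of the 10 genes was 0.18, beside -0.013 over all genes tested, and the median absolute log2 fold change was 0.32 beside 0.24. The groups did not overlap in 8 of the 10 genes, beside 57.9% of the genes tested. When libraries were scaled by their total counts alone, the median of all genes moved to -0.11, the split of calls over all genes went from 3452 higher and 3805 lower to 2342 higher and 5227 lower, and Cd86 and Cd40 were no longer called.

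Cd274 had the largest rise of the 10 in TAM. The gene lies on chr19:29367455-29388095 (GRCm38, plus strand) and encodes PD-L1, the ligand through which macrophages and tumor cells engage PD-1. It stood at 177, 174 and 169 CPM in Shp2f/f TAM and at 272, 287 and 305 CPM in Shp2f/fLysMcre TAM. Every Shp2f/fLysMcre library lay above every Shp2f/f library. The log2 fold change was 0.70 (SE 0.0481, 95% interval 0.59 to 0.80, adjusted p = 6.33e-07), which is 1.62-fold, and 11.8% of the genes tested had a larger absolute change. It was 0.60 with total-count scaling (adjusted p = 4.72e-06). Pdcd1lg2, the second PD-1 ligand, lies beside it at chr19:29410919-29471161 and gave no call. Its values were 2.37, 2.11 and 2.10 CPM in Shp2f/f and 1.91, 3.18 and 1.91 CPM in Shp2f/fLysMcre. A single library, Shp2f/fLysMcre replicate 2, was above the other five, and the groups overlapped. The log2 fold change was 0.060 (SE 0.211, 95% interval -0.41 to 0.53, adjusted p = 0.838), and it was -0.23 without that library and -0.038 with total-count scaling. At 52 to 107 reads a library, a change of the size of that of Cd274 lay outside the interval, while smaller changes in either direction were not detectable. Pdcd1lg2 overlaps the antisense gene A930007I19Rik, which held 968 reads over all libraries against 534 for Pdcd1lg2, and the strand setting of the counting was not given in the sources used here.

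The promoter windows of the 2 adjacent ligand genes and of Lgals9 are shown because interferons are known to induce all of them, and because the window of Lgals9 alone held an interferon-type match. Each is the 250 bases before the RefSeq start (GRCm38.p6, printed 5′ to 3′ on the strand of the gene), at chr19:29367188-29367437 for Cd274, chr19:29410669-29410918 for Pdcd1lg2 and chr11:78984925-78985174 on the minus strand for Lgals9. Capitals mark matches to the motifs searched.
Cd274: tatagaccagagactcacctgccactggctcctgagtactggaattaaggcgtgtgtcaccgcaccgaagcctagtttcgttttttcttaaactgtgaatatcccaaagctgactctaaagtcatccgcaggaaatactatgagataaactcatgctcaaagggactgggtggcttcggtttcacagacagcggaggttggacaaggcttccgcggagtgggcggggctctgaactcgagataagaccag
Pdcd1lg2: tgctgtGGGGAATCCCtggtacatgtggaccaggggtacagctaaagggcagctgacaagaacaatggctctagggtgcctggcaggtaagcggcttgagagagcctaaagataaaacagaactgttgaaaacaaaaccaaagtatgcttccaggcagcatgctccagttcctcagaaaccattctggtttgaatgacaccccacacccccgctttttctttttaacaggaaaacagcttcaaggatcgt
Lgals9: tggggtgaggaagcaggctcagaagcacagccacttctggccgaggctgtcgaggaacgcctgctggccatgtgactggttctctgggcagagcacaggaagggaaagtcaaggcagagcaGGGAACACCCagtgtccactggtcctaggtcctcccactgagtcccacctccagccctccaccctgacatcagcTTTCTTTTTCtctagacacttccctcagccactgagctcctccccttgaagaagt
RefSeq windows were matched for 7 of the 10 genes (not Cd86, Cd40 or Cd83). The 3 motifs, searched on both strands, were the interferon-stimulated response element core GAAANNGAAA, the STAT site TTCNNNGAA and an NF-kB type core GGGNNNNNCC. The response element core was found in 1 of the 7, Lgals9, and in 2.98% of all 32851 promoter windows of that length. The STAT site was found in none of the 7 and in 7.02% of all windows, and the NF-kB core in 3 (Pdcd1lg2, Cd80 and Lgals9) and in 45.8% of all. These are matches of letters and not sites.

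Pdcd1 itself (chr1:94038305-94052553, minus strand) was near the floor of detection in every group. It gave 45, 39 and 49 reads in Shp2f/f TAM (1.33, 1.02 and 1.34 CPM) and 33, 42 and 29 reads in Shp2f/fLysMcre TAM (1.07, 1.25 and 1.07 CPM). The groups overlapped, and the log2 fold change was -0.16 (SE 0.216, 95% interval -0.63 to 0.32, adjusted p = 0.582). T cells also express Pdcd1, and T cell transcripts moved between these groups: 7 of 8 T cell markers fell in Shp2f/fLysMcre TAM, their sum going from 11.3 to 12.3 CPM down to 4.52 to 6.24 CPM, while the eighth, Cd4, rose from 17.7 to 18.0 CPM up to 54.0 to 54.3 CPM. Cd3e, which marks T cells, stood at 0.808 to 1.12 CPM and then at 0.388 to 0.514 CPM. Per kb of exon Cd3e had 0.242 and then 0.113 CPM per kb, below the 0.636 and 0.584 CPM per kb of Pdcd1. Lck, of the same marker list, had 1.19 CPM per kb in Shp2f/f, above Pdcd1, and 0.487 in Shp2f/fLysMcre, below it. The part of T cells in the Pdcd1 values was not tested.

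The CD28 ligands Cd80 and Cd86 moved in opposite directions in TAM. Cd80 (chr16:38455561-38496335) fell from 110, 107 and 105 CPM to 89.9, 90.5 and 91.5 CPM, a log2 fold change of -0.28 (SE 0.0359, adjusted p = 6.57e-05). Cd86 (chr16:36603869-36666081, minus strand) went from 158, 147 and 146 CPM to 169, 175 and 175 CPM, a log2 fold change of 0.17 (SE 0.0434, adjusted p = 0.00788). No Shp2f/fLysMcre library overlapped with the Shp2f/f libraries in either gene. The rise of Cd86 depended on the scaling, with a log2 fold change of 0.068 and an adjusted p of 0.233 by total counts. A ratio within a library needs no scaling between libraries. The ratio of Cd86 to Cd80 in counts per kb was 1.39 to 1.46 in the 3 Shp2f/f TAM libraries and 1.90 to 1.96 in the 3 Shp2f/fLysMcre libraries, without overlap. Cd274, whose product binds CD80, went from 1.65 to 1.66 times Cd80 up to 3.09 to 3.41 times Cd80. In MDSC the ratio of Cd86 to Cd80 was 2.81 to 3.07 in Shp2f/f and 2.71 to 3.28 in Shp2f/fLysMcre, which overlap. Cd274 to Cd80 went from 0.767 and 0.891 up to 1.46 and 1.61 in MDSC, without overlap.

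**Figure D2:**
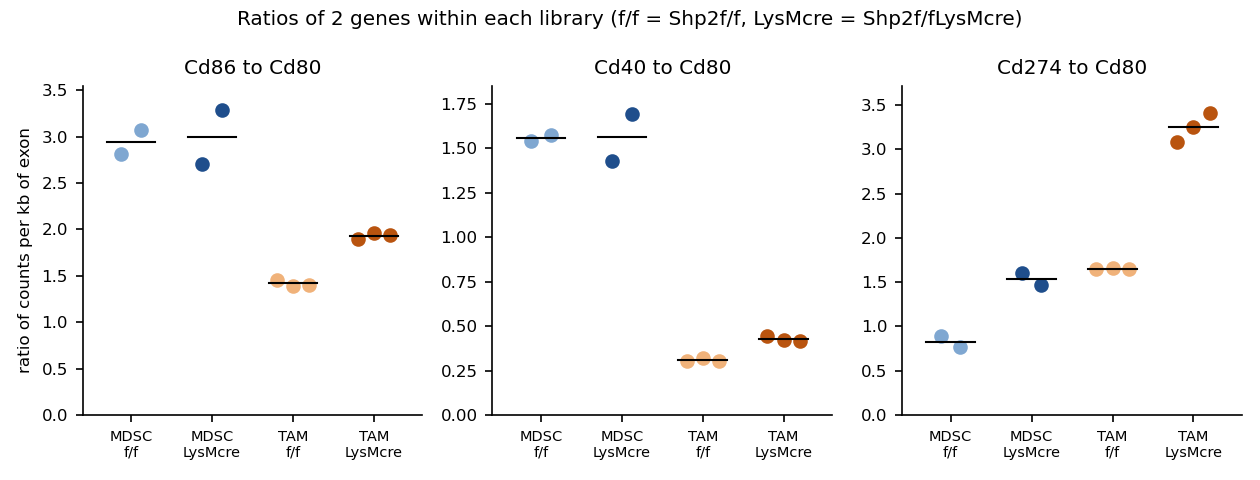
Ratios of 2 members within each library (y axis, counts per kb of exon of the first gene over those of the second, linear scale from 0) in the 4 groups (x axis); points are libraries and black lines are group means. In TAM the genotypes did not overlap in any of the 3 ratios, with Cd274 to Cd80 going from at most 1.66 to at least 3.09.

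Cd40, the receptor through which helper T cells license antigen-presenting cells, had a small rise in TAM that depended on the scaling. It stood at 30.5, 31.4 and 29.6 CPM in Shp2f/f and at 36.9, 35.2 and 35.0 CPM in Shp2f/fLysMcre (log2 fold change 0.19, SE 0.0453, adjusted p = 0.00443). The groups did not overlap, but with total-count scaling the log2 fold change was 0.094 and the adjusted p 0.0897. Cd83 went from 276, 289 and 263 CPM to 402, 402 and 387 CPM, every Shp2f/fLysMcre library above every Shp2f/f library (log2 fold change 0.49, SE 0.0412, adjusted p = 2.67e-06). CD83 is used as a marker of mature dendritic cells, and the 4 tested markers of such cells all fell in the same comparison: Ccl22, Cacnb3, Ccr7 and Fscn1 together with Lamp3 summed to 36.6 to 37.0 CPM in Shp2f/f TAM and to 25.2 to 29.0 CPM in Shp2f/fLysMcre TAM. Lamp3 was not tested, and was at 0 in 2 of the 3 Shp2f/fLysMcre libraries. All 7 macrophage markers rose, their sum going from 7847 to 8229 CPM up to 12029 to 12766 CPM, and Csf1r was no longer called with total-count scaling. The part of these in the rises of Cd274, Cd83 and the other genes was not tested.

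Havcr2 and Lgals9, a receptor and the lectin that binds it, went in opposite directions in TAM. Havcr2 (chr11:46454935-46481255) encodes TIM-3, an inhibitory receptor of T cells and myeloid cells. It fell from 138, 136 and 127 CPM to 108, 107 and 106 CPM, without overlap (log2 fold change -0.36, SE 0.0405, adjusted p = 2.61e-05). Lgals9 (chr11:78962974-78984946, minus strand) rose from 188, 195 and 180 CPM to 266, 266 and 248 CPM, also without overlap (log2 fold change 0.43, SE 0.0426, adjusted p = 8.83e-06). Vsir (chr10:60346851-60372684), which encodes VISTA, a B7-like inhibitory protein abundant on myeloid cells, rose from 391, 397 and 379 CPM to 593, 570 and 538 CPM (log2 fold change 0.51, SE 0.0418, adjusted p = 2.28e-06). All 3 Shp2f/fLysMcre libraries were above the Shp2f/f libraries and still below all 4 MDSC libraries. Vsir lies over part of Cdh23 on the other strand, and Cdh23 held 392 reads over all libraries beside 265876 for Vsir.

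In MDSC, 1 of the 10 genes was called, Havcr2, which fell. Of the 14806 genes tested in MDSC, 4.28% were called, 3.76% higher and 0.520% lower. The groups did not overlap in 9 of the 10 genes (all but Lgals9), beside 48.9% of all genes tested with 2 samples a group. The 10 genes split into 5 higher and 5 lower in Shp2f/fLysMcre, with a median log2 fold change of -0.038 beside -0.015 over all genes. Havcr2 stood at 46.9 and 47.9 CPM in Shp2f/f MDSC and at 30.6 and 27.2 CPM in Shp2f/fLysMcre MDSC. Both Shp2f/fLysMcre libraries were below both Shp2f/f libraries, and the log2 fold change was -0.72 (SE 0.117, 95% interval -1.01 to -0.43, adjusted p = 0.0364). Monocytes also express it. Their markers, which the purification was meant to leave out, were nevertheless present, and summed lower in the same libraries, as given above, and their part in the Havcr2 values was not tested. Without Shp2f/f replicate 1 or replicate 2 the adjusted p of Havcr2 was 0.638 or 0.767, at log2 fold changes of -0.74 and -0.71, with 1 gene called in the whole table.

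Cd274 came next in MDSC, with 14.2 and 11.7 CPM in Shp2f/f and 21.5 and 18.6 CPM in Shp2f/fLysMcre. Both Shp2f/fLysMcre values were above both Shp2f/f values. The log2 fold change was 0.63 (SE 0.158, 95% interval 0.23 to 1.02), and the adjusted p of 0.105 missed the threshold. Its log2 fold change was 0.74 without Shp2f/fLysMcre replicate 2, the library with fibroblast and tumor cell transcripts. Over 11 alternative settings it ran from 0.48 to 0.77, and 7 of them kept the outcome of the main fit. Without Shp2f/fLysMcre replicate 2 the log2 fold changes of Havcr2 and Cd86 were -0.63 and -0.33. The MDSC values of Cd83 turned on the same library: 3.69 and 4.15 CPM in Shp2f/f against 4.50 and 7.36 CPM in Shp2f/fLysMcre, with a log2 fold change of 0.59 (SE 0.279, adjusted p = 0.340) that was 0.20 without it. Mature dendritic cell markers summed to 26.5 CPM in that library and to 10.9 CPM in the other of its group, mostly through Fscn1, an actin-bundling protein (17.7 against 5.50 CPM). Cacnb3 was also higher there (5.88 against 2.52 CPM), whereas Ccr7 was lower (1.93 against 2.28 CPM) and Lamp3 had no read against 1. Cd80 (-0.26), Cd86 (-0.24), Cd40 (-0.26) and Vsir (-0.16) had negative log2 fold changes and Pdcd1lg2 (0.51), Pdcd1 (0.66) and Lgals9 (0.084) positive ones, with adjusted p-values of 0.312 to 0.851. Of these, Pdcd1 and Pdcd1lg2 rested on 12 to 47 reads a library.

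**Figure D3:**
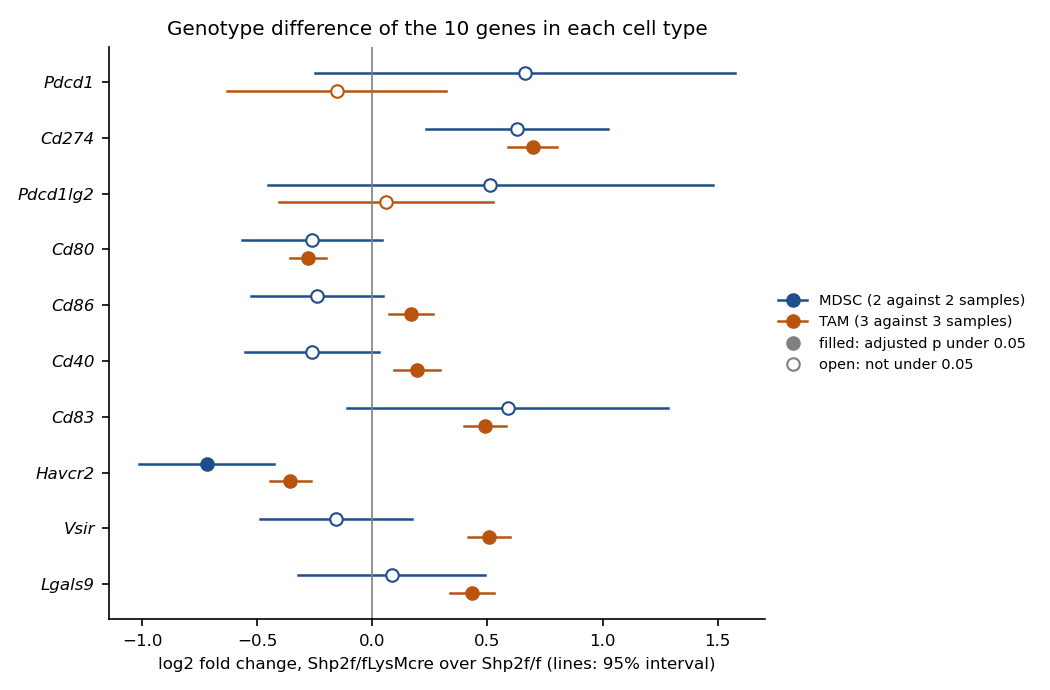
Log2 fold change of each member, Shp2f/fLysMcre over Shp2f/f (x axis), in MDSC and in TAM, with 95% intervals as lines; filled points had an adjusted p under 0.05. Cd274 lay at 0.63 in MDSC and 0.70 in TAM, Havcr2 was below 0 in both, and Vsir lay at -0.16 in MDSC and at 0.51 in TAM.

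Whether the genotype difference of a gene differed between the 2 populations was asked by a test of the interaction of cell type and genotype. The 10 libraries entered 1 fit. Of the 10 genes, 4 were called, all shifted upward in TAM relative to MDSC: Vsir, Cd40, Cd86 and Havcr2. Of the 16581 genes tested, 24.9% were called, 12.2% shifted upward in TAM and 12.7% downward. For Vsir the effect in TAM exceeded that in MDSC by 0.70 on the log2 scale (SE 0.104, adjusted p = 0.00114), for Cd40 by 0.48 (SE 0.0970, adjusted p = 0.00578), for Cd86 by 0.43 (SE 0.1003, adjusted p = 0.0117) and for Havcr2 by 0.39 (SE 0.0916, adjusted p = 0.0119). In Vsir, Cd40 and Cd86 the fitted effect was positive in TAM and negative in MDSC, while in Havcr2 it was negative in both and larger in MDSC. The spread between replicates was wider in MDSC, with a biological coefficient of variation of 0.189 beside 0.0595 in TAM, and with weights that allow for this (voom, added after the data were seen) the same 4 genes had adjusted p-values of 0.00161 for Vsir, 0.0229 for Cd40, 0.0335 for Cd86 and 0.0445 for Havcr2. Since the populations share mice, the replicate number was also tried as a block shared by both populations of a genotype (added after the data were seen; 4 TAM libraries then have a partner): Vsir stayed called (0.72, adjusted p = 0.0420), and Cd40 (0.48, adjusted p = 0.132), Cd86 (0.41, adjusted p = 0.138) and Havcr2 (0.36, adjusted p = 0.141) were not, with 970 of all genes called against 4132. With total-count scaling Vsir alone was called (0.53), the median of all genes was -0.18, and the split of calls over all genes was 1234 upward and 3132 downward, against 2030 and 2102. Cd274 gave no call for a difference between the populations: the difference was 0.10, with a 95% interval of -0.20 to 0.40 (adjusted p = 0.634). For Cd80 it was 0.012, with an interval of -0.16 to 0.18. For Lgals9 it was 0.38 (SE 0.141, adjusted p = 0.0784), and for Pdcd1 -0.79 (SE 0.399, adjusted p = 0.180).

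The region of the PD-1 ligand genes on chromosome 19 held 8 other annotated genes or antisense transcripts besides Cd274 within 200 kb, Pdcd1lg2 included. In TAM, Jak2 (0.25), Plgrkt (0.43), the antisense transcript A930007I19Rik (0.51) and Ric1 (0.39) were called higher in Shp2f/fLysMcre, all with smaller log2 fold changes than the 0.70 of Cd274. Of all genes tested in TAM, 50.2% were called, 23.9% higher. Insl6 (-0.056, adjusted p = 0.718) and Pdcd1lg2 (0.060) were not called, and Rln1 and the antisense gene AC119228.1 had too few reads to be tested. JAK2 is a kinase of the interferon-gamma receptor, PLGRKT a plasminogen receptor and RIC1 a component of a Golgi guanine exchange complex. In MDSC none of the 6 tested neighbors was called by edgeR (1 at an unadjusted p under 0.05) or by DESeq2. Of all genes tested in MDSC, edgeR called 4.28%.

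**Figure D4:**
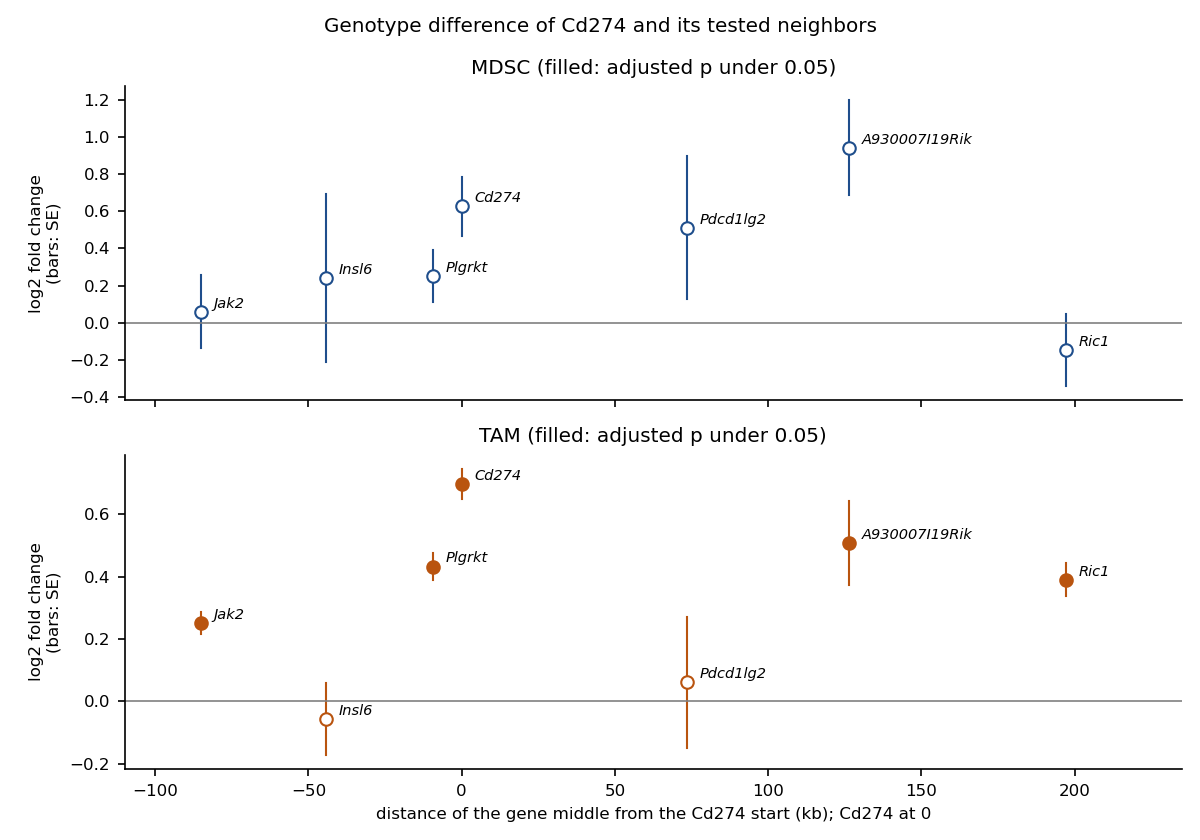
Log2 fold change, Shp2f/fLysMcre over Shp2f/f (y axis, bars are SE), of Cd274 and the 6 tested genes within 200 kb against the distance of each gene's middle from the start of Cd274 in kb (x axis), in MDSC above and TAM below. Filled points had an adjusted p under 0.05; in TAM, Cd274 was the highest at 0.70, with Pdcd1lg2 at 0.060.

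The partners of these genes were examined as 10 lists of 52 distinct genes. In TAM 48 of them were tested, and 23 were called higher, 14 lower and 11 not, beside 23.9% higher and 26.3% lower of all genes tested; the median log2 fold change was 0.11 beside -0.013. With total-count scaling 19 were called higher and 17 lower. In MDSC none of the 46 tested was called by edgeR, beside 4.28% of all genes tested. Of the 46, 13 had an unadjusted p under 0.05, DESeq2 called 1 (Pvr), and the median was -0.13. The share of all genes with an unadjusted p under 0.05 was not counted, here or for the monocyte markers and the Cd274 neighbors.

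Receptors on lymphocytes for the ligands above went down together in TAM. Of 8 such genes 7 were tested, and 6 were lower in Shp2f/fLysMcre TAM and none higher. Among them, Cd226, an activating receptor of T and NK cells, went from 0.339 to 0.518 CPM down to 0.129 to 0.294 CPM (log2 fold change -1.14, SE 0.416), and Ctla4, the inhibitory receptor for CD80 and CD86, from 3.88 to 4.83 CPM down to 1.69 to 2.70 CPM (-0.92, SE 0.175). These genes were at a low level in TAM. They moved with the T cell markers given above, except Cd4, and with NK cell markers, of which 4 of 4 fell. The part of T and NK cells in their values was not tested. Cd40lg, which encodes the CD40 ligand, had too few reads to be tested.

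Inhibitory receptors of myeloid cells that carry ITIM motifs, the docking sites of SHP-1 and SHP-2, mostly rose in TAM, with 8 of 10 higher and 1 lower, under either scaling. Neutrophil markers moved with them: 4 of the 5 tested rose in TAM under either scaling, with Cxcr2 highest (1.03), and the sum of 6 markers went from 174 to 191 CPM up to 282 to 302 CPM. The endothelial markers Kdr (0.39) and Cdh5 (0.29) were called higher as well, the latter not with total-count scaling. The part of these cells in the ITIM receptor values was not tested. Pecam1, which endothelial cells also express, rose from 29.2 to 31.5 CPM up to 56.2 to 62.1 CPM (0.94, SE 0.0494). Cd300a rose from 51.1 to 54.1 CPM up to 88.6 to 96.6 CPM (0.78, SE 0.0433), and stood at 441 and 478 CPM in Shp2f/f MDSC. Clec12a fell (-0.16, SE 0.0548), and its groups overlapped, at 251 to 273 CPM against 225 to 261 CPM. In the test of the difference between the populations, 7 of these 10 genes were shifted upward in TAM relative to MDSC and 1 downward. Of all genes in that test, 12.2% were shifted upward and 12.7% downward. Ptpn6, which encodes SHP-1, the other phosphatase that docks on such motifs, rose from 342 to 352 CPM up to 403 to 445 CPM in TAM (0.26, SE 0.0416), whereas Ptpn11 fell as given above.

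Ligands of the TNF family that costimulate T cells also rose in TAM, 3 of the 4 tested, and 2 of them with total-count scaling. Tnfsf14 (LIGHT) went from 18.2 to 19.5 CPM up to 35.1 to 38.7 CPM (0.92, SE 0.0556) and Tnfsf9 (4-1BB ligand) from 31.3 to 33.4 CPM up to 54.0 to 59.7 CPM (0.78, SE 0.0492). The interferon-gamma route, which induces PD-L1 in many cells, had 5 of 6 genes higher in TAM under either scaling, by small amounts: Ifngr1 by 0.34 (SE 0.0391) and Irf1 by 0.27 (SE 0.0376) were the largest. Among the partners of PD-L1 and PD-L2, Cmtm6, which keeps PD-L1 at the cell surface, rose from 148 to 161 CPM up to 196 to 215 CPM (0.41, SE 0.0459). Its relative Cmtm4 fell (-0.33, SE 0.0644), and Rgmb, a PD-L2 binding partner, gave no call (0.052, adjusted p = 0.594).

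The other B7 family ligands divided, with Cd276 (B7-H3) falling from 67.4 to 72.2 CPM down to 40.5 to 44.6 CPM (-0.76, SE 0.0468) and Icosl rising by 0.23 (SE 0.0590), a call that was lost with total-count scaling. Vtcn1 was at 0 in all libraries. Of the nectin family ligands, Nectin2 rose from 5.21 to 6.03 CPM up to 9.34 to 10.8 CPM (0.82, SE 0.0900), while Pvr (0.021) and Nectin3 (-0.79, adjusted p = 0.0813) were not called. Of the TIM family and the ligands of TIM-3 other than galectin-9, 2 of 4 tested fell and none rose: Timd4 (-1.13, SE 0.393), at under 0.4 CPM, and Hmgb1, an alarmin that binds TIM-3, from 88.0 to 90.0 CPM down to 60.4 to 69.2 CPM (-0.50, SE 0.0485). The CD40 adaptors and the noncanonical NF-kB genes below them had 3 of 8 higher and 2 lower. Map3k14, the NF-kB inducing kinase of that route, was higher by 0.30 (SE 0.0426) and Traf6 was lower (-0.20, SE 0.0489). With total-count scaling that list had 1 higher and 3 lower.

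**Figure D5:**
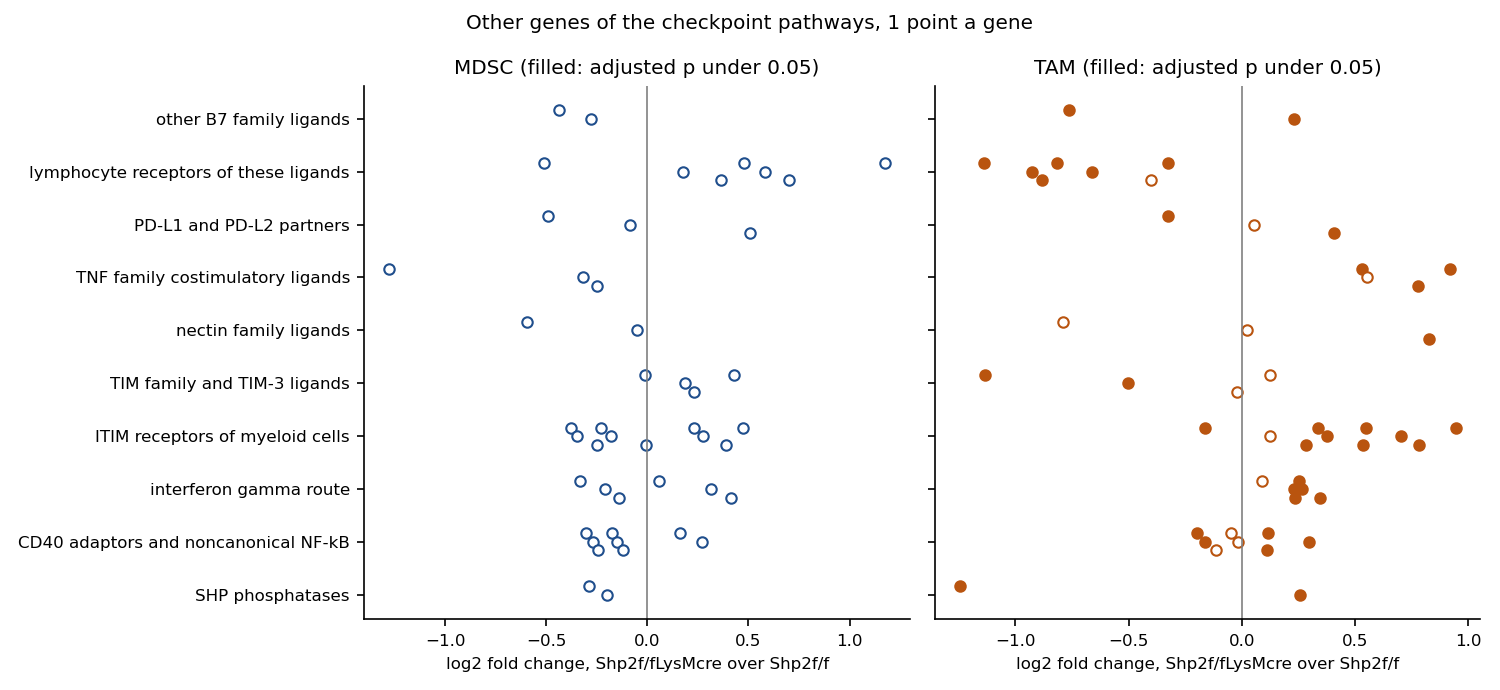
Log2 fold change, Shp2f/fLysMcre over Shp2f/f (x axis), of each tested gene in 10 lists of checkpoint partners (y axis), in MDSC on the left and TAM on the right; filled points had an adjusted p under 0.05. In TAM 6 of 7 lymphocyte receptors were lower and 8 of 10 ITIM receptors higher, and no point is filled in MDSC.

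Finally, the genes whose log2 CPM followed 3 of the members most closely over the 10 libraries were found by Pearson correlation, as a description, since these libraries fall into 4 groups and share the gap between spleen and tumor. For Cd274 they were Abcd3 (r = 0.999), Syn1 (r = 0.999) and Abcc3 (r = 0.998). For Cd86 they were Snx8, Cd72 and Ccl2 (each r = 0.999). For Pdcd1lg2 they were A930033H14Rik (r = 0.987), Gm26797 (r = 0.984) and Bcl2a1d (r = 0.983). Abcd3 encodes a peroxisomal transporter, Abcc3 an organic anion exporter and Ccl2 a monocyte-attracting chemokine. Among the members themselves, Cd274 and Cd83 had r = 0.991.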

How the data were processed

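Bulk poly(A) RNA was sequenced in 10 libraries (stranded kit, paired reads of 42 bases). Per the submitters' processing notes, reads were checked with FastQC 0.11.5, trimmed with cutadapt 2.5, aligned with STAR 2.7.3a and counted with featureCounts of Subread 1.6.2, on GRCm38. The authors deposited raw counts per gene, used here, and values normalized with DESeq2 1.24.0, not used here. Names, positions and exon lengths came from GENCODE M21 (GRCm38), which matched 99.7% of 55421 identifiers.

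Tests were the quasi-likelihood F test of edgeR 4.0.16 (R 4.3.3) with TMM scaling and filterByExpr (minimum count 10), fitted within MDSC, within TAM, over all samples for the difference of genotype effects, and over the Shp2f/f samples for TAM against MDSC. Adjustment (Benjamini-Hochberg) ran over all genes tested, and a gene was called under 0.05. Printed levels are CPM on a TMM scale shared by all libraries, which shifts a TAM genotype difference by 0.036 (log2) and an MDSC one by 0.0055 against the fits. Libraries totalled between 28844660 and 38222998 counts, so that Pdcd1 and Pdcd1lg2 rested on 12 to 107 reads a library. Replicates differed by more than counting noise. On simulated data, the tests across both populations made more false calls than their threshold allows when the spread differed between populations, and voom with a weight per cell type (limma 3.58.1) was therefore added. Other alternatives were DESeq2 1.42.0, other scalings, filters and thresholds, a replicate block (within a cell type, and shared by both, the latter added), a fit over all samples and leaving out each library. The text names the 10 members, the most changed genes of each list in each direction (all genes of lists of 3 or fewer), genes within 200 kb of Cd274, the genes most correlated with 3 members, and markers. Members and lists were chosen with earlier results of these data known.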

Additional observations from a re-analysis of the deposited data

Results flagged for a closer look

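Of the 10 genes, 4 were flagged because the genotype effect differed between TAM and MDSC in the test of the difference itself: Vsir (0.70 on the log2 scale, TAM minus MDSC), Cd40 (0.48), Cd86 (0.43) and Havcr2 (0.39). Of all 16581 genes in that test, 24.9% were called. With the replicate number as a block shared by both populations of a genotype, Vsir alone remained called. Vsir combined the highest level of the 10 genes in MDSC with a rise in TAM and a fitted change of -0.16 in MDSC. Havcr2 was lower in Shp2f/fLysMcre in both populations, in 5 of 5 libraries of that genotype against the Shp2f/f libraries of the same population. With 2 or 3 libraries a group, no test for a single outlying library was made.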

How the results depend on the processing

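In MDSC, where 1 of the 10 genes was called, the count was 2 with DESeq2 (Cd274 at an adjusted p of 0.0492), 0 without a filter on low counts, 2 with a replicate block, 4 in a fit over all 10 samples, and 0 to 3 when single libraries were left out. Over all genes, 633 were called in MDSC, against 1167 at an adjusted p under 0.1, 1256 with DESeq2, 130 without the filter, 2674 with the block, 2666 in the fit over all samples, and 1 to 4406 with a library left out. Leaving out a TAM library gave 8 members called in TAM in each case. In the main TAM fit 50.2% of all genes were called, and the share with a library left out is not given here. For the difference of effects the number of members called varied with the library left out. The 4132 genes called for the difference of effects became 2446 to 7023 when MDSC libraries were left out, and the members called became 1 with total-count scaling. In TAM, 4837 of all genes were called in the fit over all samples, against 7257.

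Signs turned for values that were not called. With total-count scaling these were Pdcd1lg2 in TAM (-0.038) and, for the difference of effects, Cd274 (-0.068) and Cd80 (-0.16), the last also with a filter of 1 CPM (-0.021) and with the shared block (-0.0098). With a library left out, Lgals9 in MDSC ranged from -0.16 to 0.27, Pdcd1lg2 in TAM from -0.23 to 0.19, and the difference of effects from -0.041 to 0.26 for Cd274, from -0.028 to 0.067 for Cd80 and from -0.38 to 0.33 for Cd83. The cause was not tested.

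The labels do not say that a replicate number marks a mouse. Deviations from the group means in same-numbered samples correlated at -0.0551 to 0.130 within a cell type. Between MDSC and TAM of a genotype they correlated at -0.142 to 0.0269. With 2 samples a group, both MDSC pairs necessarily give the same value, 0.130. Differently numbered samples were not set beside these, so that the values cannot decide whether samples were paired. With the replicate number as a block shared by both populations, 1 member (Vsir) and 970 genes were called for the difference of effects, and for TAM against MDSC 10 members. With the replicate block within a cell type, Cd274 in MDSC had an adjusted p of 0.000473, Lgals9 was called for the difference of effects (0.39, adjusted p = 0.0402), and no other member's call changed. A lone sample left in a group was assumed to vary like the others. Pdcd1 and Pdcd1lg2, at 12 to 107 reads a library, are limited by depth.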
